A study of Mus musculus with 6 samples.

Results

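The 8 adrenergic receptor genes Adrb1, Adrb3, Adra1a, Adra1b, Adra1d, Adra2a, Adra2b and Adra2c were taken by name from the GENCODE M21 annotation of the mouse genome (mm10), out of 21864 protein-coding genes. For each gene, every ATAC-seq peak was collected whose summit lay between 50 kb before and 50 kb after the gene, and the strongest peak with a summit within 1 kb of a start site was taken as its promoter peak. ATAC-seq reads out where a transposase can reach the DNA, so a peak marks open chromatin and not expression of the gene.

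The study profiled adipocytes grown from the stromal vascular fraction (SVF), the mixed non-fat cells of adipose tissue that hold the adipocyte precursors. SVF cells came from male C57BL/6J mice aged 3 to 4 weeks, genotype "wild type C57", and were differentiated in culture for 7 days. Beige and white adipocytes came from inguinal subcutaneous fat, brown adipocytes came from brown adipose tissue, and each condition had 2 libraries. As the labels give it, beige and brown cultures received 5 µM dexamethasone, 0.5 mM IBMX, 1 nM T3, 1 µM rosiglitazone and 5 µg/ml insulin, and white cultures received 1 µM dexamethasone, 0.5 mM IBMX and 5 µg/ml insulin without T3 or rosiglitazone. The study's methods state lower insulin doses that also differ between beige and white, so the insulin in the medium is uncertain. Beige and white therefore differ in medium, brown and beige in tissue of origin, and brown and white in both, which cannot be told apart. The paper lists ATAC-seq of cultured beige and white adipocytes but of no brown cultures. Whether the brown libraries were made together with the others is not stated, so a batch difference cannot be told apart from brown. IBMX, which blocks the breakdown of cAMP, the messenger of the beta receptors, was given to all 3 conditions. Per the study's methods, the first medium of beige and white cultures was later replaced by one without IBMX or dexamethasone. Neither drug is thus listed for the medium of these cultures at harvest. The paper does not describe the timing for brown cultures.

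Adrenergic receptors bind noradrenaline and adrenaline released by sympathetic nerves and the adrenal gland. Beta receptors couple to Gs and raise cAMP, which drives lipolysis and, in brown and beige fat, thermogenesis. The alpha1 receptors couple to Gq and release calcium, and the alpha2 receptors couple to Gi and lower cAMP, so that in adipocytes they act against the beta receptors.

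The 6 peak lists held 109143 to 127490 peak intervals, with median widths of 246 to 267 bp. The lists hold no read depth, and the −log10 q of a peak grows with depth, so strength is given as the within-list percentile of −log10 q, where 100 is the strongest peak of that library. Of 8 adipocyte marker genes, 6 had a promoter peak in all 6 libraries, the exceptions being Cfd, with none, and Lep, with a peak in brown 1 alone. Promoter peaks in all 6 libraries were found at 5 of 8 progenitor markers, 5 of 8 smooth muscle and pericyte markers, 4 of 8 endothelial markers, 2 of 8 macrophage markers and 2 of 8 neuron and glia markers, where 62% of all protein-coding genes had one. Open chromatin at a marker promoter does not count cells, and the part of other cell types in the results below was not tested. With 2 libraries against 2 the smallest two-sided exact permutation p is 0.333, and with 2 against 4 it is 0.133, so that test could not pass a threshold of 0.05 in any comparison. No other test was fitted, and differences are described by whether the libraries of the conditions overlap.

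The sequences below carry the main patterns described afterwards. Each covers 201 bp of the GRCm38.p6 genome (mm10) centred on a region's summit, written 5′ to 3′ on the receptor gene's strand. Capitals mark matches to the searched motifs, which are TGANTCA (AP1), TTGCNNAA (CEBP), CCCNNGGG (EBF), CCGGAAG (ETS), CCCGCCC (SP), TGACGTCA (CRE), ACANNNTGT (GRE), AGGTCANAGGTCA (PPAR DR1) and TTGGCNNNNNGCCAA (NFI), on both strands, where N is any base and no string contains another. The pair of coding-exon regions is shown because the highest summits within the beta receptor genes lay there and not at the start sites.
Adrb1 coding exon, 1342 bp after the start (chr19:56723441-56723641, plus strand): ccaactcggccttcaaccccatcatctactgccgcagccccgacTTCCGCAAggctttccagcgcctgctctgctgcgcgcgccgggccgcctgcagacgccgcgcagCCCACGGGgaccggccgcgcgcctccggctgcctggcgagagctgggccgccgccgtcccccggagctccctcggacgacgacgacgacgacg
Adrb3 coding exon, 861 bp after the start (chr8:27227533-27227733, minus strand): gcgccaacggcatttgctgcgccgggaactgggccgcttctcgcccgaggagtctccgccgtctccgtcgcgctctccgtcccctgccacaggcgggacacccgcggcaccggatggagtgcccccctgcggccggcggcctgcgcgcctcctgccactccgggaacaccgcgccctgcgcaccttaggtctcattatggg
The distal regions are shown for their strength or for their difference between conditions.
Adrb1, 21122 bp before the start, strongest region of the gene (chr19:56700977-56701177, plus strand): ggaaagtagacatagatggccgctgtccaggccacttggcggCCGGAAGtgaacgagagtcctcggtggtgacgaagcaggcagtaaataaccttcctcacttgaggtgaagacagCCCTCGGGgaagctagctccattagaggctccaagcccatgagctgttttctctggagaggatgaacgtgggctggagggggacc
Adrb1, 18245 bp before the start, beige and brown without white (chr19:56703854-56704054, plus strand): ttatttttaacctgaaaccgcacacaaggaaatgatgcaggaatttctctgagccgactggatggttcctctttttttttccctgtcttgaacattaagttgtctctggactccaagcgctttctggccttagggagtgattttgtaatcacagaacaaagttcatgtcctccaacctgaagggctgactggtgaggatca
Adra1a intron, 112935 bp after the start, highest in brown (chr14:66748391-66748591, plus strand): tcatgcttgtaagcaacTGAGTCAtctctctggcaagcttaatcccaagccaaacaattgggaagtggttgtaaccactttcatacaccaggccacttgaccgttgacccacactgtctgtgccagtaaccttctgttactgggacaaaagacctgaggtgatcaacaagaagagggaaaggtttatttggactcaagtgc
Adra1b, 26395 bp before the start, beige alone (chr11:43927505-43927705, minus strand): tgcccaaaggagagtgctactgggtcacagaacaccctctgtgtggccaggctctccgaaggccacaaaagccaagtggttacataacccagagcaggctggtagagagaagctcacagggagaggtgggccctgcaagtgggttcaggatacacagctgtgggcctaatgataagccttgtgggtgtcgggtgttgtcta
Adra1d intron, 9071 bp after the start, lowest in white (chr2:131553112-131553312, minus strand): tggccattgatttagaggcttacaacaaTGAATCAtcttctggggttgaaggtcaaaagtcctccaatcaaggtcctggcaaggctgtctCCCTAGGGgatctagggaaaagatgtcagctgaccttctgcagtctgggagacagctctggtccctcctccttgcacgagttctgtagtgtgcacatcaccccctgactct
Adra2b, 39389 bp before the start, beige and brown without white (chr2:127323719-127323919, plus strand): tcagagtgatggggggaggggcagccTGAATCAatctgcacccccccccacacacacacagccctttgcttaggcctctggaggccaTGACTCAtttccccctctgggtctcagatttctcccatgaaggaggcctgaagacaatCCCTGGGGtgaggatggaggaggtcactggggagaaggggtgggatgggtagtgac
Both coding-exon windows were rich in G and C, at 75.1% for Adrb1 and 73.1% for Adrb3, with 31 and 26 CpG pairs in 201 bp, against 3 CpG pairs in the Adrb1 window 18245 bp upstream and 0 in the Adra2b window.

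Promoter opening differed widely within the family. The mean percentile over the 6 libraries, with the SD pooled within conditions (n = 2 each), was 92.5 ± 3.97 at Adra1b, 85.2 ± 5.72 at Adra2b, 84.7 ± 3.74 at Adra1d, 80.2 ± 4.05 at Adra2a, 65.5 ± 10.9 at Adra1a and 37.5 ± 9.49 at Adrb1. Adra2b and Adra1d differed by less than their SDs, and the other neighbours in this order by more than the larger SD of the pair. Counted at the highest summit of each peak, Adrb3 lacked a promoter peak in 1 library and Adra2c in 4. A promoter peak in all 6 libraries was found at 6 of the 8 receptor genes, and at 62% of all protein-coding genes. Of all protein-coding genes, 65.8% to 66.7% had a promoter peak in a given library. Over these genes the median promoter peak stood between percentile 90.7 and 93.5 of its list, and Adra1b stood nearest to that median. Their lower quartile lay between 76.9 and 79.6. The promoter peak was below that lower quartile or absent in 6 of 6 libraries at Adrb1 and Adra2c. It was so in 5 at Adra1a, 4 at Adrb3, 3 at Adra2a, 1 each at Adra1d and Adra2b, and 0 at Adra1b. Genes without a peak do not enter that quartile, and the share of all genes below it or without a peak was not counted. These counts therefore do not show whether the family was less open than other genes. The plot of promoter percentiles shows the 8 genes side by side.

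**Figure D1:**
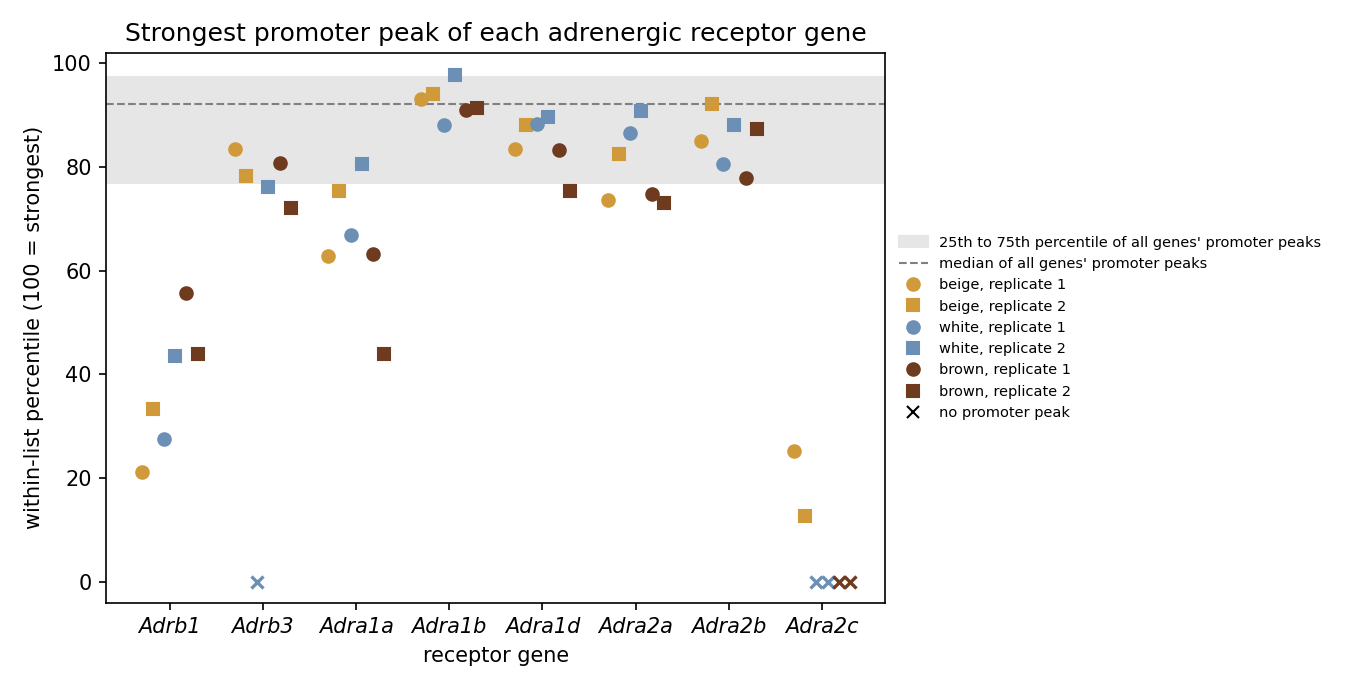
Within-list percentile (y axis, 100 is the strongest peak of a library) of the strongest promoter peak of each receptor gene (x axis) in the 6 libraries. Colours are conditions, circles and squares replicates 1 and 2, crosses at 0 mean no promoter peak, and the grey band and dashed line show the quartiles and median of promoter peaks over all genes. Adra1b lies between 88.0 and 97.7, while Adrb1 stays at or below 55.7 and Adra2c has a peak only in the beige libraries.

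Adrb1 lacked a sharp promoter peak, and the promoter peak of Adrb3 lay inside the gene. Adrb1 (ENSMUSG00000035283.5), which encodes the beta1 receptor, lies on chr19:56722199-56733113 on the plus strand, with a single coding exon. Its promoter peak stood at percentile 21.2 and 33.3 in beige 1 and 2, 27.6 and 43.5 in white 1 and 2, and 55.7 and 43.9 in brown 1 and 2. Both brown libraries were above the other 4, though white 2 and brown 2 were nearly level. Brown promoter peaks stood above the other 4 libraries at 1 of the 6 receptor genes with a peak in every library, which was Adrb1, and at 7.2% of all such genes. The summits did not mark 1 place, since they were spread over 1494 bp, from 795 bp before the start to 699 bp after it, where the median gene had a spread of 56 bp. The highest summit of the surrounding region, chr19:56721327-56723886, lay in the coding exon 1342 bp after the start, beyond the 1 kb limit, and the region reached percentiles of 72.6 and 59.0 in beige, 61.8 and 72.3 in white and 55.7 and 60.6 in brown. Counted over the whole region, brown was thus not higher, and the brown order at the promoter holds only for summits within 1 kb.

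Adrb3 (ENSMUSG00000031489.15) encodes the beta3 receptor, the form most restricted to adipocytes in mice, and lies on chr8:27225776-27250616 on the minus strand. Its promoter peak had percentiles of 83.5 and 78.4 in beige, 76.2 in white 2, and 80.7 and 72.1 in brown, with none in white 1. In white 1 the same region, chr8:27227209-27228432, was open at percentile 52.8, with its highest summit 1126 bp after the start and so just outside the limit. With every summit of a peak counted, an alternative chosen after seeing the data, the mean Adrb3 promoter percentile rose from 65.13 to 73.94. Adrb3 then had a promoter peak in white 1 as well, so its absence there rests on counting each peak at its highest summit. Over the region, beige stood above white by 2.19 percentile points at the closest, less than the difference between the beige libraries, and brown overlapped both. In −log10 q, which moves with depth, the region had 44.8 and 39.1 in beige, 10.2 and 20.9 in white and 43.3 and 21.8 in brown. The promoter summits lay 851 to 865 bp after the start in both beige libraries, white 2 and brown 1, and 477 bp after it in brown 2. The highest summit of the region lay in a coding exon, and no peak of any library covered any of the annotated start sites of Adrb3. From the coding start site at 27229588 the nearest summits, 1 counted per peak, were 1320 to 2220 bp away, inside the gene.

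Among the alpha1 genes, whose receptors signal through Gq, Adra1b and Adra1d had higher promoter percentiles than Adra1a. Adra1b (ENSMUSG00000050541.14; chr11:43774606-43901210, minus strand) had the strongest promoter peak of the family, at percentiles of 93.1 and 94.2 in beige, 88.0 and 97.7 in white and 91.0 and 91.3 in brown. The fold enrichment of this peak over local background was 16.0 and 15.4 in beige, 8.45 and 10.8 in white and 13.6 and 12.1 in brown. White 1 was the lowest and white 2 the highest by percentile, so the conditions overlapped. All 6 summits lay within 18 bp of each other, 218 to 236 bp before the internal start site at 43836332. At the upstream start site, 43901210, no summit lay nearer than 5648 bp.

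Adra1d (ENSMUSG00000027335.9; chr2:131545850-131562283, minus strand) had promoter percentiles of 83.5 and 88.2 in beige, 88.3 and 89.7 in white, and 83.2 and 75.4 in brown. White stood above beige, by 0.161 percentile points at the closest, and both brown libraries stood below the other 4, by 0.315 points at the closest. These gaps are far within the replicate differences, and by fold enrichment the order turned, with 7.98 and 9.33 in beige above 7.40 and 6.49 in white. The same order of white above beige was found at 2 of the 6 receptor promoters, Adra1d and Adra2a, and at 17.3% of all genes with a promoter peak in every library, while beige above white was found at 0 of 6 and at 35.8% of all genes. Brown below the other 4 was found at 1 of 6 and at 11.2% of all genes. The summit lay 508 to 539 bp before the start, within an intron of the antisense gene Gm14285, and a separate region 230 bp before the start was weaker, at percentiles from 39.1 to 66.6. ATAC-seq does not tell strands apart, so the opening could belong to either gene.

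Adra1a (ENSMUSG00000045875.13; chr14:66635251-66771168, plus strand) had promoter percentiles of 62.9 and 75.3 in beige, 67.0 and 80.6 in white and 63.2 and 43.9 in brown. Brown 2 was the lowest of the 6, but brown 1 was above beige 1, so the conditions overlapped. Its summit was fixed to within 21 bp, 13 to 34 bp after the start, in the 5′ UTR. Adra1a therefore had a well placed but moderate peak, unlike Adrb1, whose summit moved from library to library.

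The alpha2 genes, whose receptors signal through Gi, ranged from strong to nearly closed. Adra2a (ENSMUSG00000033717.6; chr19:54044151-54048982, plus strand) encodes the alpha2A receptor. Its promoter percentiles were 73.7 and 82.4 in beige, 86.6 and 90.8 in white, and 74.9 and 73.0 in brown. White was above beige by 4.14 points at the closest and above both brown libraries, the widest gap between beige and white among the 6 promoters with a peak in every library. The difference was less clear in the −log10 q values, which were 27.6 and 48.2 in beige, 40.4 and 41.1 in white and 31.9 and 22.7 in brown, since beige 2 was higher than both white libraries. The beige 1 summit lay 5 bp after the nearest start, and those of the other 5 libraries 260 to 278 bp before it.

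Adra2b (ENSMUSG00000058620.5; chr2:127363208-127367221, plus strand) had percentiles of 85.0 and 92.2 in beige, 80.7 and 88.1 in white and 77.9 and 87.4 in brown, and the conditions overlapped. Replicate 2 was above replicate 1 in each condition. The summit lay 558 to 589 bp before the start.

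Adra2c (ENSMUSG00000045318.6; chr5:35278319-35281763, plus strand) had a promoter peak in beige 1 and beige 2 and in no white or brown library. These peaks were weak, at percentiles of 25.3 and 12.8, −log10 q of 5.59 and 4.41 and fold enrichments of 3.62 and 3.36, with summits 659 and 671 bp after the start. In white 2 a peak of similar strength, at percentile 24.7, lay further inside the gene, 1156 bp after the start, so the absence from white rests on the position as well as on the peak calls.

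By the distance over the 6 promoter percentiles, the genes most like Adra1b were Wdr82, at a distance of 1.35, Fam213a and Tmem29, and those most like Adra2c were C130032M10Rik, Gjb5 and Tcf20. The genes most like Adrb1 were Prr15, at 17.5, Wnt4 and Npw, and those most like Adrb3 were Maoa, at 17.8, Rbpjl and Dio3. Maoa, which encodes an enzyme that breaks down noradrenaline, also lacked a promoter peak in white 1 alone. A missing peak entered the distance at the bottom of the scale, so this shared gap helped to select Maoa and is no separate result. The gap at Adrb3 rests on counting each peak at its highest summit, as given above. Whether the likeness reflects a link between Adrb3 and Maoa was not tested. The nearest gene was at 3.80 for Adra1d (C1s1), 4.39 for Adra2a (Fgf10), 5.31 for Adra2b (Hp) and 8.43 for Adra1a (Enpp3), so both beta genes had no close match.

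The 8 windows held 141 of the 194610 regions formed by merging the peaks of the 6 lists. Adra1b had 30 regions, Adra1a 26, Adrb1 20, Adrb3 20, Adra1d 15, Adra2b 13, Adra2c 10 and Adra2a 7. Only 93 of the 141 were nearer to the start of the receptor than to that of another protein-coding gene, from 5 of 20 at Adrb3, which sits between Got1l1 and Eif4ebp1, and 4 of 13 at Adra2b, to all regions at Adra2a and Adra2c. By place, 65 regions were intergenic, 33 in introns of the receptor gene, 32 in another gene, 7 in its UTRs and 4 in its coding exons. The maps of the 8 loci show few regions around Adra2a and Adra2c and many around Adrb1 and Adra1b. These counts depend on window length, which ran from 103 kb at Adra2c to 227 kb at Adra1b and 236 kb at Adra1a. Regions per 100 kb were 18.03 at Adrb1, 16.02 at Adrb3, 13.24 at Adra1b, 12.88 at Adra1d and 12.5 at Adra2b. They were 11.02 at Adra1a, 9.67 at Adra2c and 6.68 at Adra2a, where the median over all genes was 11.49. By density Adra1b thus stood below both beta genes.

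**Figure D2:**
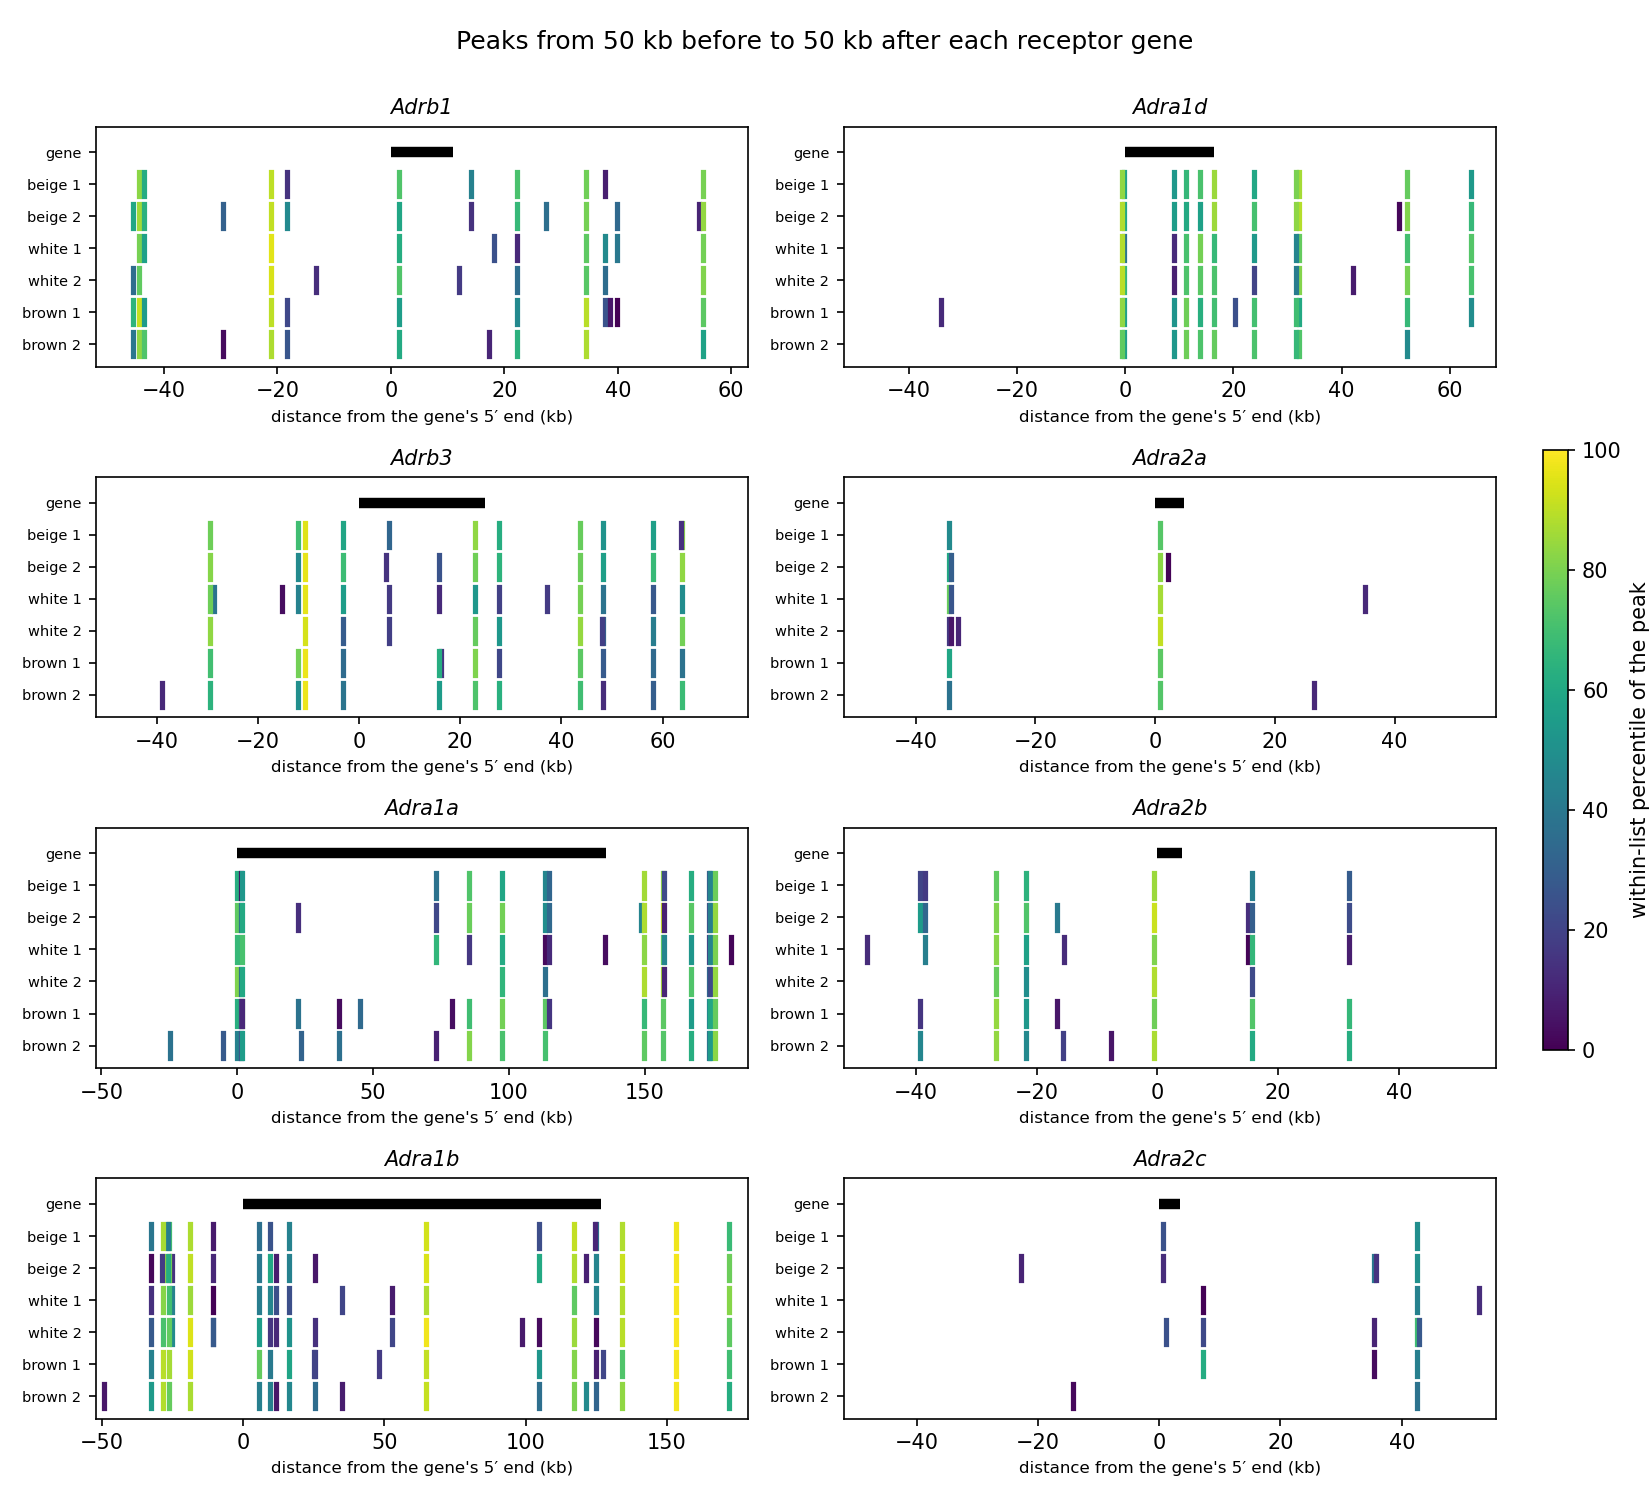
Peaks in each library (rows) by distance in kb from the 5′ end of the receptor gene (x axis), from 50 kb before to 50 kb after the gene (black bar). Each tick is a region with a peak in that library, coloured by within-list percentile. Adra2c has 10 regions of which 1 is open in all 6 libraries, while Adra1d has 15 regions of which 10 are.

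A peak in all 6 libraries was present at 55 of the 141 regions (39%), and at 30.2% of all regions. A peak in a single library was present at 49 regions (34.8%, against 37.2% of all regions), and none of these single-library peaks had a −log10 q above 10.7. The share in all 6 libraries ran from 66.7% at Adra1d and 45% at Adrb3 to 28.6% at Adra2a and 10% at Adra2c.

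**Figure D3:**
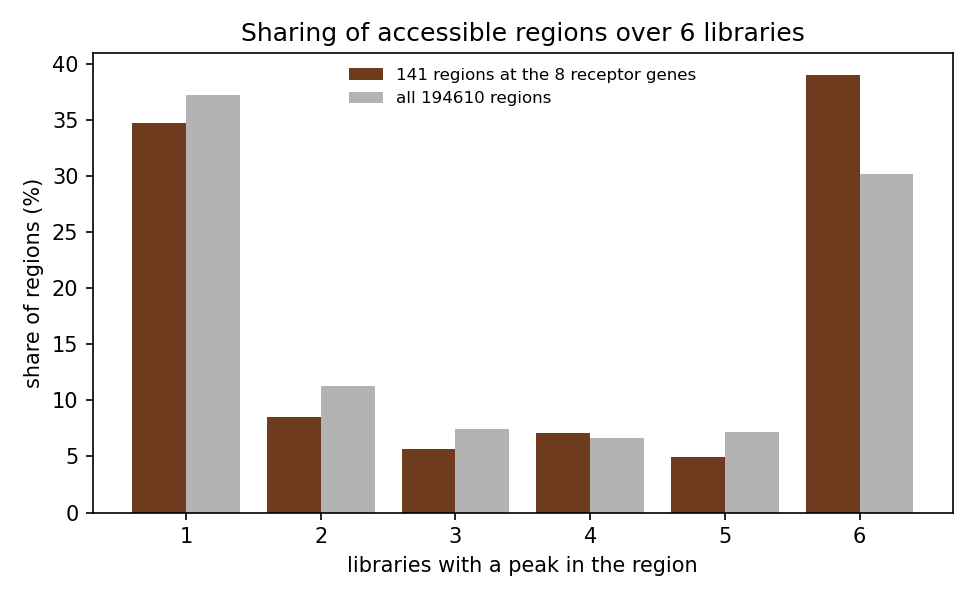
Share of regions (y axis, %) by the number of libraries with a peak in the region (x axis, 1 to 6), for the 141 regions at the receptor genes and for all 194610 regions. Both sets are split mainly between 1 library and 6 libraries, with 34.8% and 39.0% of the receptor regions there.

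The strongest region of Adrb1 was not its promoter but lay 21122 bp upstream, at chr19:56700887-56701961 in intergenic sequence, with percentiles of 90.1 and 91.0 in beige, 95.5 and 94.1 in white and 89.9 and 87.6 in brown. White was above beige and brown there. The window printed for this region held matches to the ETS and EBF motifs. Of the other genes, Adrb3 had its strongest region 31679 bp upstream, at percentiles of 93.7 to 97.2, but in an intron of Eif4ebp1, 938 bp from the start of that gene. For Adra1b it was the region at the start of Ttc1, at 97.6 to 99.2, and for Adra1a a region in an intron of Gm10032, at 67.0 to 87.8. For Adra1d, Adra2a and Adra2b the promoter region was itself the strongest, and for Adra2c it was a region 42562 bp after the start, at 38.0 to 69.0.

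Regions present in both libraries of 1 condition and absent from another numbered 15 of the 141, at 7 of the 8 genes. Their −log10 q ran from 1.79 to 19.1. The share of all regions with any such pattern was not counted, so shares are given below for each pattern. A peak in both beige and neither white library was found at 5 regions, 3.55% of the 141 against 4.5% of all regions. The strongest was 26395 bp before Adra1b (chr11:43927484-43927705), with −log10 q of 8.88 and 19.1 in beige and no peak in white or brown. Its neighbour 26097 bp before the gene was open in all 6 libraries, at percentiles of 69.6 to 86.5, so the beige peaks lay beside shared open chromatin. Another beige region lay 14147 bp after the start of Adrb1, with −log10 q of 9.2 and 4.68, and a further one was the Adra2c promoter peak.

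The remaining 2 of these regions were also open in both brown libraries (1.42% of the 141, against 1.25% of all regions). At Adrb1, 18245 bp upstream (chr19:56703702-56704052), −log10 q was 4.27 and 11.4 in beige and 5.5 and 4.98 in brown, with no white peak. At 39389 bp before Adra2b (chr2:127323596-127323930), −log10 q was 4.93 and 14.6 in beige and 4.63 and 8.18 in brown, again with no white peak. The start of Dusp2, which encodes a phosphatase of MAP kinases, was 12340 bp from that summit and so nearer than Adra2b. Its window held a pair of AP1 matches, while the printed Adrb1 window held no match to any of the motifs.

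A peak in both white and neither beige library was found at 3 regions (2.13%, against 1.98% of all regions). They lay 12052 and 10674 bp before start sites of Adra1b, at −log10 q of at most 5.49, and 7159 bp after the start of Adra2c, where white 1 and 2 had −log10 q of 1.85 and 4.77 and brown 1 had 18.1. Both brown libraries alone shared 1 region (0.709%, against 0.877% of all regions), in an Adra1a intron 37174 bp after the start, at −log10 q of 2.73 and 6.32. Beige and white without brown shared 1 region (0.709%, against 1.16% of all regions). It lay in an exon of Gm10032, 156844 bp after the Adra1a start, at −log10 q of 3.48 to 8.1. A peak in both brown and neither white library was found at 3 regions in all (2.13%, against 2.94% of all regions). In both brown and neither beige library it was found at 1 (0.709%, against 1.56%).

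Against brown, 6 regions had a peak in both beige and neither brown library (4.26%, against 4.8% of all regions), and 6 in both white and neither brown library (4.26%, against 3.48%). Of these, 5 are not yet described, each with a single further library open. In an Adrb3 intron, 15120 bp before the nearest coding start (chr8:27244622-27244809), −log10 q was 4.04 and 4.31 in white and 6.89 in beige 1. At 34074 bp before Adra2a, in an intron of Shoc2, it was 5.09 and 2.97 in white and 7.10 in beige 2, and at 25190 bp before Adra1b it was 7.90 and 8.63 in white and 4.70 in beige 2. Both inguinal conditions thus contributed peaks to these regions and brown had none. At 38592 bp before Adra2b, −log10 q was 4.63 and 7.67 in beige and 7.64 in white 1. At 10417 bp before Adra1b (chr11:43911533-43911725) it was 3.28 and 4.24 in beige and 4.87 in white 2, directly beside the white region 10674 bp before the gene (chr11:43911772-43911977). White 2 had a peak in both of these neighbouring regions, and whether their division between beige and white reflects the bounds of the peaks was not tested. Adra1d had no region of this kind, and the shares of all these patterns lay near those of all regions.

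**Figure D4:**
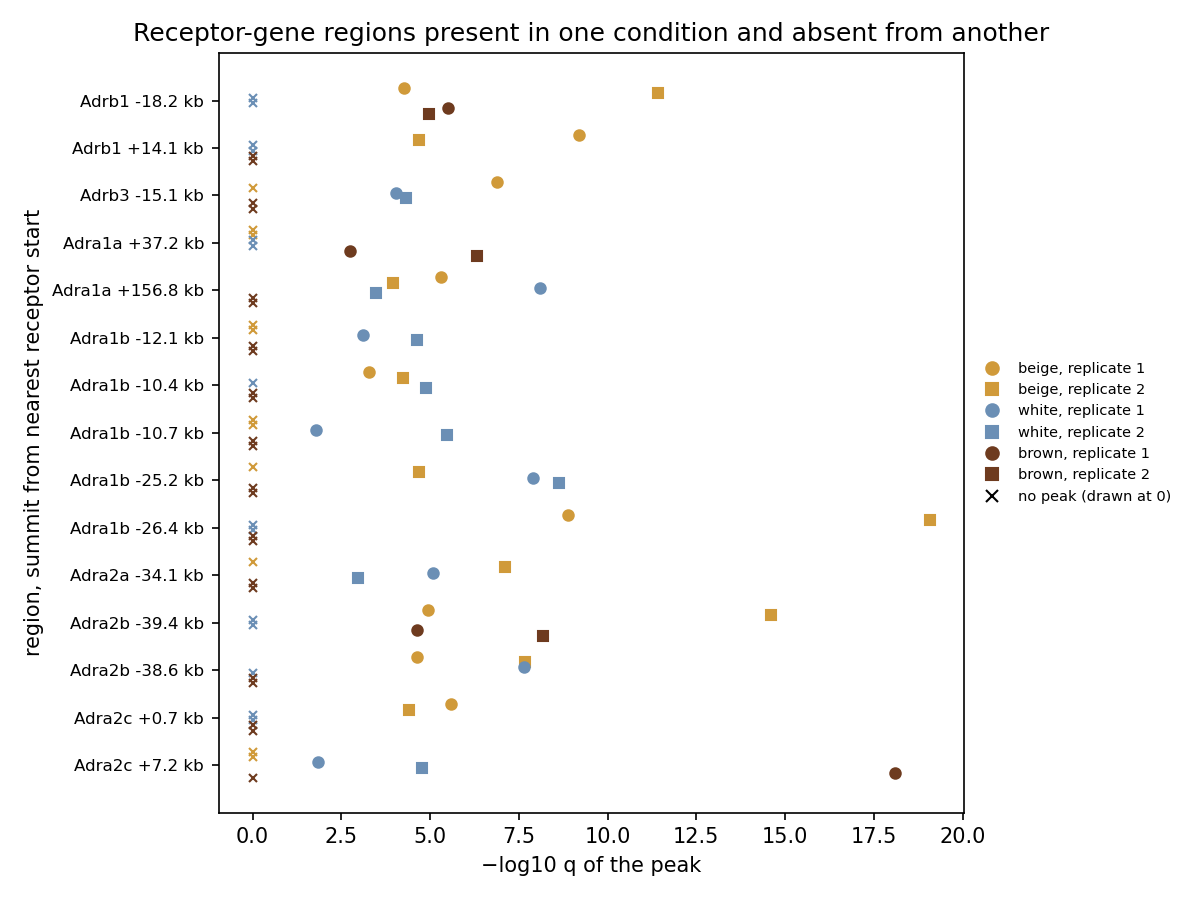
−log10 q (x axis) in the 6 libraries for the 15 receptor-gene regions open in both libraries of 1 condition and absent from both libraries of another (y axis, distance of the summit from the nearest start of the receptor in kb). Colours are conditions, circles and squares replicates 1 and 2, and crosses at 0 mean no peak. The beige region 26.4 kb before Adra1b has the highest value, 19.1, and most others stay under 10.

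Among the 55 regions open in every library, strength could be compared by rank. Beige percentiles were above white without overlap at 18 regions (32.7%, against 27% of all such regions), and white above beige at 8 (14.5%, against 21.3%). Percentiles of brown were above the other 4 libraries at 9 regions (16.4%, against 8.18%), and below them at 12 (21.8%, against 13.8%). With a median difference between replicates of 4.64 percentile points in beige, 9.41 in white and 6.69 in brown, gaps of a few points are within the differences between replicates, and the widest are given first. Adrb3 had beige above white at 6 of its 9 shared regions and Adra1d at 5 of 10, while Adra1a had 1 of 10 and Adra1b 2 of 13. White was above beige at 1 of these regions at Adrb3, 3 at Adra1d, 0 at Adra1a and 2 at Adra1b. Several of the Adrb3 regions with beige higher were nearer to the start of another gene. Some of their gaps were small, such as 2.19 points at the coding-exon region.

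The widest gap between beige and white lay in the Adra1d intron, 9071 bp after the start (chr2:131553089-131553340). Percentiles were 53.3 and 54.8 in beige, 11.7 and 8.86 in white, and 51.7 and 53.0 in brown. Beige and brown libraries were nearly level there and both white libraries were lower, by 41.6 points at the closest for beige. The window held an AP1 and an EBF match. Beyond the end of Adra1d, 31486 bp after the start, percentiles were 80.1 and 83.0 in beige, 45.5 and 41.6 in white and 69.5 and 66.9 in brown, and 16511 bp after the start they were 84.8 and 85.2, 67.0 and 71.8, and 69.9 and 76.6.

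At Adrb1, the region 22186 bp after the start (chr19:56744095-56744535), in an intron of AC158549.1, had percentiles of 71.2 and 66.9 in beige, 11.4 and 35.5 in white and 47.2 and 63.7 in brown. White was the lowest condition, and brown lay between white and beige. At Adrb3, beige was also highest 36036 bp after the start, at 56.2 and 67.4 against 27.7 and 42.0 in white and 34.2 and 29.6 in brown, and 26165 bp after the start, at 51.5 and 56.2 against 38.2 and 30.7 in white and 28.4 and 12.8 in brown. Both of the Adrb3 regions were nearer to the start of Got1l1, the second of them 218 bp from it.

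The widest gap of brown to the other libraries was in an Adra1a intron, 112935 bp after the start (chr14:66748268-66748727). Percentiles were 74.9 and 70.6 in brown, 45.8 and 48.9 in beige and 2.47 and 36.4 in white. The conditions were fully ordered, brown above beige and beige above white, and brown was higher by 21.7 points at the closest. At Adrb1, the region 34372 bp after the start (chr19:56756153-56756929) stood at 89.4 and 87.7 in brown, 78.4 and 79.3 in beige and 75.2 and 74.1 in white, again with brown highest and white lowest. Brown was lowest, by 8.01 points at the closest, in the region 50541 bp before Adrb3, at 69.8 and 64.3 against 77.9 to 83.2, which lay in an exon of 5430430B14Rik, and by 7.24 points at the Gm10032 intron region downstream of Adra1a.

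**Figure D5:**
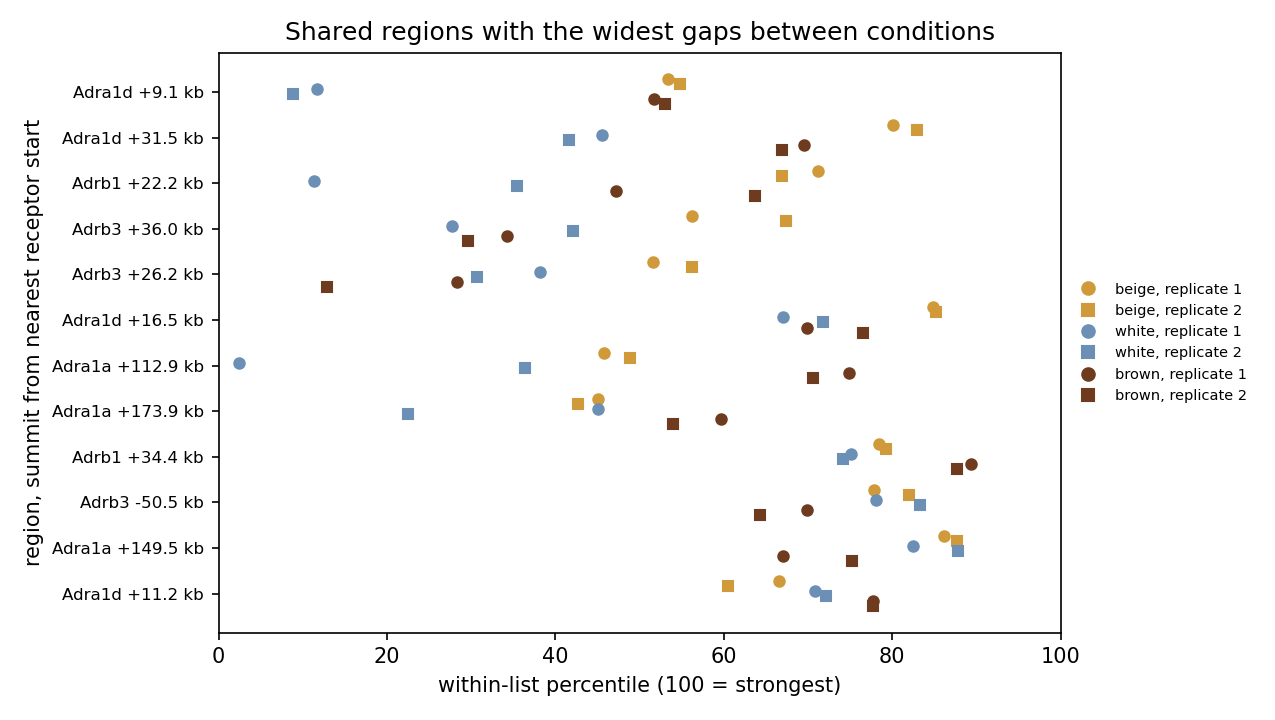
Within-list percentile (x axis) in the 6 libraries for the regions open in all libraries with the widest gap between beige and white or between brown and the other 4 libraries (y axis, distance of the summit from the nearest start of the receptor in kb). Colours are conditions, circles and squares replicates 1 and 2. At the Adra1d intron region 9.1 kb after the start both white libraries lie at or under 11.7 and the other 4 at 51.7 to 54.8, and at the Adra1a intron region both brown libraries lie above 70.

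Over the windows of 201 bp, an AP1 match was present at 21.3% of the 141 receptor regions and 21.2% of all regions, a CEBP match at 13.5% and 12.6%, and an EBF match at 10.6% and 9.2%. A CRE match, the full site read by the CREB factors that cAMP activates, was present at 1 receptor region (0.709%, against 0.652% of all regions), the start of Ttc1 downstream of Adra1b. The PPAR DR1 letters AGGTCANAGGTCA were found at 1 region, 32999 bp before Adra2a in an intron of Shoc2, with a peak in white 2 alone, and at 0.0576% of all regions. GRE matches, for the glucocorticoid receptor that dexamethasone activates, were at 3.55% of receptor regions and 6.96% of all, SP at 2.13% and 6.21%, and ETS at 2.84% and 2.35%. No receptor region held an NFI match, against 0.0668% of all regions.

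Downstream of the receptors, most signalling genes had a promoter peak in every library. Where 62% of all protein-coding genes had a promoter peak in all 6 libraries, such peaks were found at 11 of 11 genes of the Gs and cAMP arm, 4 of 4 of the Gi arm, 5 of 6 of the Gq arm, where Plcb4 had none, and 6 of 6 genes of receptor desensitisation. Their median percentiles were 93.2, 93.7, 91.1 and 88.7, against a median of 72.9 over the 8 receptors. These medians include genes without a promoter peak, placed at the bottom of the scale. The median of all genes given above leaves such genes out, and one counted in the same way was not computed. Whether the receptors or the signalling genes differ from the typical gene was therefore not tested. Prkaca, the catalytic subunit of protein kinase A, stood at 98.7 to 99.7, and Adcy5, an adenylyl cyclase, varied most in that arm, from 11.6 in white 2 to 77.7 in beige 1. Of 9 genes of catecholamine synthesis and clearance 5 had a promoter peak in all 6 libraries, while Th, Dbh and Pnmt, the enzymes that make catecholamines, had none in any library.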

How the data were processed

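ATAC-seq libraries of beige, white and brown adipocytes, 2 each, were used as deposited peak lists. Per the study's methods the authors trimmed adaptors with Trimmomatic 0.36, mapped the reads with BWA 0.7.17 (mm10) and made 1 list for each library with MACS2 2.2.8, keeping q under 0.05. For the brown libraries the labels name BWA, MACS2 and mm10, with versions not given in the sources used here. A deepTools filter on mapping quality and marked duplicates is listed for the study, without saying whether it preceded peak calling, and the transposase offset is not given in the sources used here. The deposited columns used were the fold enrichment over local background, a ratio, and the −log10 q-value at each summit.

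An interval with several summits was counted once, at its highest −log10 q. Ranks were made within each list, and peaks overlapping by 1 bp or more were merged over libraries. A missing promoter peak entered means as 0. Counts, percentiles and overlaps were computed with Python 3.11.15, numpy 2.4.6 and pandas 2.3.3, checked on simulated lists, and motif letters were read from the GRCm38.p6 genome; no peak passed a chromosome end of that build. No statistical test was run: the lists hold no counts, the exact permutation test cannot reach 0.05 here, and no model of the percentiles was fitted. The study's methods state 2 biological replications per group. The peak lists hold no read depth, and read totals that the study lists for beige and white libraries were not used here.

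The members and lists were chosen with earlier results of these data known. Named regions were, for each gene, the promoter region, the region of highest mean percentile, every region present in both libraries of 1 condition and neither of another, and the widest gaps among regions in all 6 libraries; the 3 most alike genes were those at the smallest Euclidean distance over the 6 promoter percentiles. Alternatives covered the q threshold, list length, ranking, window, promoter width, start sites, matching of peaks and each library left out.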

Additional observations from a re-analysis of the deposited data

How the results depend on the processing

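The number of receptor regions was 83 with a window of 20 kb, 221 with 100 kb and 93 when only regions nearest to the receptor were kept, with 32, 86 and 33 of them open in all 6 libraries. Without each library in turn these counts ran from 131 to 143 and from 55 to 59. Regions of beige without white numbered 3 at 20 kb and 5 to 20 without a library, the highest without beige 1. Regions of white without beige numbered 1 at q under 0.01, 5 at 100 kb and 3 to 14 without a library, the highest without white 2. Regions of beige and brown without white numbered 4 at q under 0.00001 and with equally long lists, 1 at 20 kb and among the nearest regions, and 2 to 6 without a library. The region of brown alone was lost with equally long lists (0) and numbered 1 to 11 without a library. Regions of beige and white without brown numbered 0 at q under 0.00001, with equally long lists, at 20 kb and among the nearest regions, 2 at 100 kb and with summits matched within 250 bp, and 1 to 3 without a library. The median receptor promoter percentile, 72.86, was 67.25 at q under 0.00001, 65.58 with ranks by fold enrichment, and 70.52 to 78.57 without a library. It was highest without white 1, where the highest Adrb3 summit lay outside the promoter limit. Genes with a promoter peak in all libraries numbered 6 to 7. They numbered 7 with a promoter of 3 kb, without white 1, and with every summit of a peak counted. The mean promoter percentile of Adrb1 rose from 37.51 to 63.65 with a promoter of 3 kb or with the starts of all transcripts, and to 51.86 with every summit of a peak counted, an alternative chosen after seeing the data, and fell to 17.99 with ranks by fold enrichment and to 19.43 at q under 0.00001. The cause of these shifts was not tested beyond what each setting does by construction. Counts of condition-dependent regions are thus the least stable values here, since each rests on peaks being called in both libraries. No paired analysis was possible because none of the reported results rests on a statistical test.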
